A study of Mus musculus with 6 samples.

Results

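Leukaemia inhibitory factor (LIF) is the cytokine that keeps mouse embryonic stem cells (mESCs) self-renewing in culture. It joins the LIF receptor (Lifr) to the shared signalling chain gp130 (Il6st), and Janus kinases (JAKs) bound to these chains phosphorylate the transcription factor STAT3, which then enters the nucleus and activates genes. Among the genes it activates are SOCS proteins, which switch the receptor and the kinases off again, so that the pathway limits itself. The 10 genes described here are both receptor chains, the kinase Jak1, Stat3, the inhibitors Socs3, Socs2 and Cish, the survival kinases Pim1 and Pim3, and Bcl3, a cofactor of NF-kB, and they were taken by symbol from the 53390 genes of the GENCODE M21 annotation that had values.

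Gene expression was measured by strand-specific RNA-seq in TKO mESCs, in which Dnmt1, Dnmt3a and Dnmt3b are inactivated in both conditions, so that no library held an intact set of DNA methyltransferases. The line came from male J1 mESCs of the 129S4/SvJae strain and was grown without feeder cells. The 3 TKO-serum libraries came from medium with 15% fetal calf serum and LIF at 500 U/ml. The 3 TKO-2i libraries came from cells given 1000 U/ml of LIF together with 1 µM PD0325901, which inhibits MEK, and 3 µM CHIR99021, which inhibits GSK3. The paper describes the base medium of 2i as a defined one (SFES). The LIF dose, the serum, the base medium and the inhibitors changed together, so their parts in a difference cannot be told apart, and no library without LIF was analysed here. The comparison asked how the genes of the pathway were expressed under each condition. Total estimated counts were 46228700, 44180642 and 43896549 in TKO-2i replicates 1, 2 and 3 and 38274042, 51932739 and 44827609 in TKO-serum replicates 1, 2 and 3. A count of 3 corresponded to between 0.0564 and 0.0778 CPM (counts scaled to the library size) in these libraries, a floor that covers counting error only. Levels within a gene are given below in CPM, and levels of different genes are compared in TPM, which correct for the length of each transcript. The quasi-likelihood test of edgeR was run over 18177 genes, a gene was called at a Benjamini-Hochberg adjusted p under 0.05, and log2 fold changes, given with their standard errors (SE), are of TKO-2i over TKO-serum. The replicates are numbered in the sample titles and are all of the TKO line, so the p-values measure the spread between these samples and not between lines. TKO-2i replicate 2 stood further from its group than the others did. Its chi-square per gene was 45.0 against replicate 1 and 27.4 against replicate 3, whereas replicates 1 and 3 differed by 7.08.

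The deleted genes were still transcribed. Dnmt1 had 29.1, 34.6 and 29.3 TPM in TKO-2i and 25.7, 28.6 and 27.9 TPM in TKO-serum. Dnmt3a had 4.30, 5.19 and 4.54 TPM in TKO-2i and 21.3, 23.0 and 22.8 TPM in TKO-serum, and Dnmt3b had 6.71, 9.53 and 8.49 TPM in TKO-2i and 18.8, 20.9 and 20.7 TPM in TKO-serum. A sum over a gene's transcripts does not separate deleted exons from those that remain, so these levels do not check the deletions. The cells expressed the markers of pluripotent cells in every library. Pou5f1, the most abundant of these 8 markers, had between 982 and 1057 TPM in TKO-2i and between 1249 and 1253 TPM in TKO-serum.

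Of the 10 pathway genes, all 10 passed the filter on low counts, 4 were called higher in TKO-2i (Stat3, Il6st, Jak1 and Bcl3), 5 were called lower (Socs3, Lifr, Pim1, Pim3 and Cish) and Socs2 was not called. The number called lower was 2 without TKO-serum replicate 1 or 3 and 3 without TKO-2i replicate 3. Across all genes tested, 31.9% were called higher and 30.6% lower, or 62.5% in either direction, so that a call by itself set the pathway genes little apart from the rest. The 10 genes had a median of -0.09 on the log2 fold change scale, beside 0.01 for all genes tested. The median of the 10 genes was -0.17 with length-scaled TPM and -0.26 with limma on both TPM scales. Their median absolute log2 fold change was 0.37, beside 0.44 for all genes tested and 0.38 for the 13997 genes whose mean was at least 1 CPM. The sizes of the changes were thus near those of the tested genes as a whole. Pim3 and Cish were called and changed at least 2-fold, as did 23.3% of all genes tested, and Cish was the 1 gene of the 10 with an absolute log2 fold change above 2, a change shared by 9.19% of all genes tested. The CPM values of the conditions did not overlap in 9 of the 10 genes and in 67.5% of all genes tested.

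**Figure D1:**
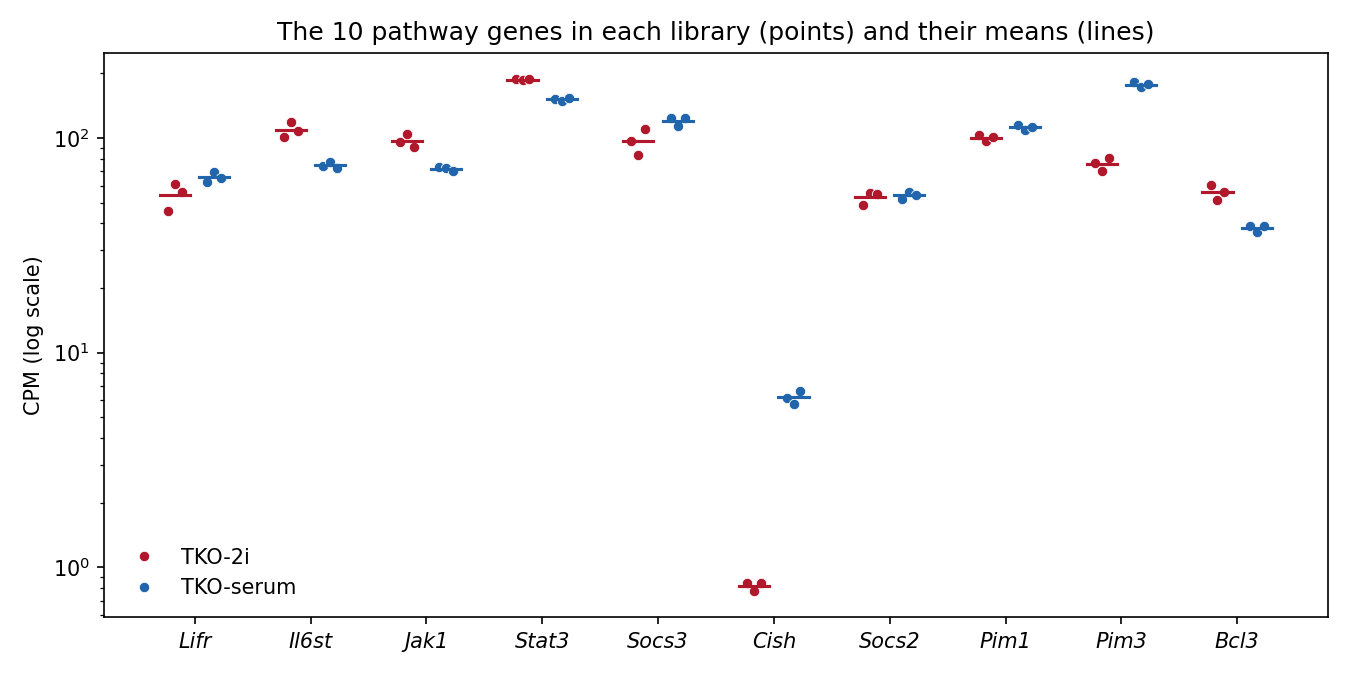
CPM of the 10 pathway genes on a log axis, with 1 point for each library and a line at the mean of the 3 libraries of a condition (TKO-2i red, TKO-serum blue). Cish lies below 1 CPM in all 3 TKO-2i libraries and at or above 5.79 CPM in all 3 TKO-serum libraries, Pim3 is the other gene with a wide gap, and the points of Socs2 overlap.

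The receptor chains moved in opposite directions. Il6st (ENSMUSG00000021756; chromosome 13 of GRCm38, 112464070 to 112510086), which encodes gp130, the signalling chain shared by receptors of the IL-6 family, had 102, 119 and 108 CPM in TKO-2i and 73.8, 77.7 and 72.8 CPM in TKO-serum, with the libraries in the order of their replicate numbers here and below. Every TKO-2i library lay above every TKO-serum library, and the log2 fold change was 0.55 (SE 0.07, Benjamini-Hochberg adjusted p = 0.00016 by edgeR's quasi-likelihood test). The median of chromosome 13 was -0.11, and Il6st lay 0.66 above it. Lifr (ENSMUSG00000054263; chromosome 15, 7090614 to 7197489), the chain that gives the complex its specificity for LIF, had 45.6, 61.0 and 55.9 CPM in TKO-2i and 62.2, 69.2 and 65.4 CPM in TKO-serum. Replicate 1 was the lowest TKO-2i library, and the highest TKO-2i value lay just under the lowest TKO-serum value. The log2 fold change of Lifr was -0.28 (SE 0.10, Benjamini-Hochberg adjusted p = 0.039 by edgeR's quasi-likelihood test). Its call rested on most of the libraries together. With edgeR and Benjamini-Hochberg adjustment, the adjusted p was 0.057 without TKO-2i replicate 1, where the log2 fold change was -0.18, and 0.058 without TKO-2i replicate 3, and without TKO-serum replicates 1, 2 or 3 it was 0.052, 0.13 and 0.094. Over all alternatives tried it lay between 0.0017 and 0.13. The ratio of the receptor chains, in TPM, shifted accordingly. Lifr TPM over Il6st TPM was 0.584, 0.437 and 0.470 in TKO-2i and 0.955, 1.01 and 0.877 in TKO-serum. Summed over transcripts, the chains thus had similar TPM in serum while Il6st exceeded Lifr in each TKO-2i library. Lifr-205, a transcript of Lifr without a reading frame, made up 27.4%, 0% and 0% of the TPM of Lifr in TKO-2i. In TKO-serum it made up 17.2%, 22.1% and 0%, so the ratios nearest to 1, those of replicates 1 and 2, include it. Ratios of the coding transcripts alone were not tested.

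Il6ra and Cntfr, other receptor genes of the IL-6 family, changed more than these chains did. Il6ra, the ligand-binding chain for IL-6, had 9.44, 11.3 and 9.29 TPM in TKO-2i and 0.938, 0.990 and 0.848 TPM in TKO-serum. Its log2 fold change was 3.52 (SE 0.07, Benjamini-Hochberg adjusted p = 1.6e-08 by edgeR's quasi-likelihood test). Cntfr, the binding chain for ciliary neurotrophic factor, went the other way, with 1.12, 1.48 and 1.07 TPM in TKO-2i and 5.09, 6.27 and 5.56 TPM in TKO-serum and a log2 fold change of -2.15. The log2 fold changes of Ebi3 and Il11ra1 were -1.22 and -0.46. Il27ra was not called, and Osmr, the oncostatin M receptor chain, was below the filter, with at most 0.193 TPM in any library. Ligands were expressed as well. Of 9 ligand genes, 7 were tested, 1 was called higher and 3 lower, with -0.11 as the median log2 fold change. It was -0.17, -0.17 and -0.18 without TKO-serum replicates 1, 2 and 3, -0.36 with DESeq2, -0.37 without a filter on low counts and -0.19 with limma on log2(TPM + 0.1), and at least 10 counts in every sample left 1 gene called lower. The gene called higher was Osm, oncostatin M, a ligand of gp130, which had 12.4, 12.4 and 12.6 TPM in TKO-2i and between 1.46 and 1.65 TPM in TKO-serum, with 3.12 as its log2 fold change (SE 0.11, Benjamini-Hochberg adjusted p = 1.5e-07 by edgeR's quasi-likelihood test). Lif itself, which both media also supplied, had 4.21, 4.39 and 4.36 TPM in TKO-2i and between 4.60 and 5.25 TPM in TKO-serum and was not called (log2 fold change -0.10, adjusted p = 0.31, edgeR with Benjamini-Hochberg adjustment). The genes that fell were Ctf2, Il11 and Clcf1, none of them above 0.699 TPM in any library. The call of Clcf1 was lost without TKO-2i replicates 1 or 2 or TKO-serum replicates 1, 2 or 3, where its log2 fold change lay between -0.69 and -0.42, and also with DESeq2, without a filter on low counts and with length-scaled TPM (-0.61, -0.62 and -0.53). Ctf1 and Cntf were not called, Il27 had no count, and Il6 had no more than 3 counts in any library.

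Jak1 (ENSMUSG00000028530; chromosome 4, 101152367 to 101265282) encodes the kinase most closely tied to gp130 signalling. It had 95.6, 104 and 90.5 CPM in TKO-2i and 73.2, 72.5 and 70.2 CPM in TKO-serum. The conditions did not overlap, the spread was wider in TKO-2i, and the log2 fold change was 0.43 (SE 0.06, Benjamini-Hochberg adjusted p = 0.00044 by edgeR's quasi-likelihood test). All 4 Janus kinases were called higher in TKO-2i, with a median log2 fold change of 0.44, although the rise of Jak2 (log2 fold change 0.24) was small. Its Benjamini-Hochberg adjusted p, 0.019 in edgeR, was 0.065 without TKO-2i replicate 3, 0.069 without TKO-serum replicate 1 and 0.055 without TKO-serum replicate 3, and lay between 0.0087 and 0.31 over all alternatives. The call was also lost with DESeq2, without a filter on low counts and with limma on both TPM scales. Jak3, best known from the receptors of lymphocytes, showed the largest change of the family, with 38.9, 48.8 and 43.2 TPM in TKO-2i and 19.1, 21.7 and 21.2 TPM in TKO-serum (log2 fold change 1.21, Benjamini-Hochberg adjusted p = 5.8e-07 by edgeR's quasi-likelihood test). Jak3 therefore had more TPM than Jak1 in every TKO-2i library, with ratios of 1.58, 1.66 and 1.86, whereas in TKO-serum the ratios were 0.935, 1.04 and 1.04. Jak3 overlaps Insl3 on the same strand, and Insl3 had a mean of 104 counts against 4390 for Jak3, while Jak1 overlaps Raver2 on the opposite strand, with means of 3770 and 686 counts. Tyk2 had a log2 fold change of 0.46 and made up between 21.7% and 26.8% of the TPM of the family. Summed over the 4 kinases, the TPM were 86.0, 105 and 89.6 in TKO-2i and 57.7, 62.5 and 61.0 in TKO-serum.

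**Figure D2:**
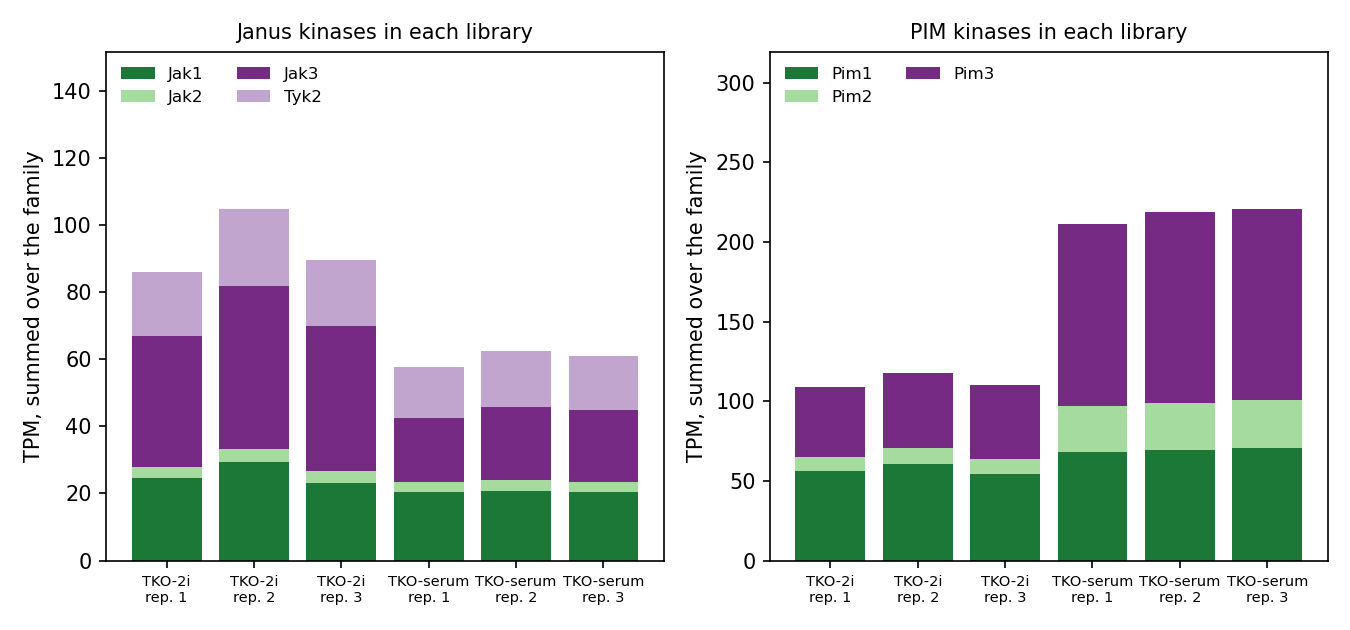
TPM of the Janus kinases and of the PIM kinases, stacked by gene, with 1 bar for each library of TKO-2i and TKO-serum. The summed TPM of the Janus kinases are higher in every TKO-2i library, with Jak3 as the widest band there, and those of the PIM kinases are higher in every TKO-serum library, with Pim3 as the widest band.

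Stat3 (ENSMUSG00000004040; chromosome 11, 100885098 to 100939540), the transcription factor on which LIF signalling in mESCs depends, had 188, 186 and 189 CPM in TKO-2i and 152, 149 and 153 CPM in TKO-serum. The replicates lay close together and the conditions did not overlap, with a log2 fold change of 0.31 (SE 0.05, Benjamini-Hochberg adjusted p = 0.00050 by edgeR's quasi-likelihood test). The rise was small on any scale, and its call depended on the fit. Stat3 kept its call with length-scaled TPM as counts, with a log2 fold change of 0.23. The call was lost with limma on both TPM scales, which changed the test together with the scale. In TPM summed over its transcripts the libraries overlapped, with 52.8, 60.9 and 53.4 in TKO-2i and 47.4, 53.5 and 51.2 in TKO-serum. Limma on log2(TPM + 1) gave a log2 fold change of 0.13 and an adjusted p of 0.17 after Benjamini-Hochberg adjustment, within a range of 7.0e-08 to 0.17 over all alternatives. The most abundant transcript, Stat3-203, did not overlap, with 42.8, 49.1 and 43.5 TPM in TKO-2i and 37.4, 39.9 and 39.4 TPM in TKO-serum. Another transcript, Stat3-213, was higher in every TKO-serum library, as given below. The part of single transcripts in the overlap was not tested. The rise of Stat3 also ran with that of its chromosome. The median over the 1399 genes tested on chromosome 11 was 0.26 on the log2 scale, and Stat3 lay 0.05 above that median. Among the other chromosomes the medians ran from -0.15 to 0.05 apart from chromosome 6, which had 0.41. The part of chromosome 11 in the change of Stat3 was not tested.

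Stat3 held between 47.6% and 52.2% of the summed TPM of the 7 STAT genes in every library, so its share of the family was similar in both conditions. Stat5a and Stat5b, close paralogues that lie beside Stat3 on chromosome 11 and act downstream of many other cytokines, rose more than Stat3 did. Stat5a had 3.43, 3.64 and 3.37 TPM in TKO-2i and 1.22, 1.32 and 1.52 TPM in TKO-serum (log2 fold change 1.55), and the log2 fold change of Stat5b was 0.93. Reads shared by these paralogues are divided between them by estimation, and the annotated spans of Stat5a and Stat3, with means of 318 and 7580 counts, overlap on opposite strands. Stat2, which acts in interferon signalling, had a log2 fold change of 0.65. Stat4 went down, with a log2 fold change of -1.36, and Stat6 was not called.

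The transcripts of Stat3 encode a long and a short form of the protein, known as STAT3α and STAT3β. Stat3-203, which encodes 770 residues, made up 81.0%, 80.6% and 81.4% of the TPM of the gene in TKO-2i and 79.0%, 74.6% and 77.0% in TKO-serum. Stat3-202, which encodes 722 residues as STAT3β does, made up no more than 0.993% in any library. A short transcript with a retained intron, Stat3-213, had 0.925, 0.336 and 0.749 TPM in TKO-2i and 4.27, 4.21 and 3.06 TPM in TKO-serum. These shares are estimates from reads that several transcripts have in common and were not tested. Lifr showed how uncertain they can be, since its transcript without a reading frame, Lifr-205, was given 3.11 TPM in TKO-2i replicate 1 and 0 TPM in replicates 2 and 3, and in TKO-serum 2.62, 3.85 and 0 TPM. Lifr-203, which encodes the full length of 1092 residues, was the most abundant transcript of Lifr in each library, with between 45.8% and 67.5% of its TPM. The transcripts of Lifr that encode 719 residues had between 0 and 1.35 TPM each. A single transcript held at least 89.2% of the TPM of Socs3, Jak1, Pim1, Pim3 and Bcl3 in every library.

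The inhibitors did not move as a group. Socs3 (ENSMUSG00000053113; chromosome 11, 117966079 to 117970047) binds gp130 and JAKs, limits LIF signalling and is a direct target of STAT3 that is often used as a readout of its activity. It had 96.9, 83.6 and 110.0 CPM in TKO-2i and 124, 114 and 124 CPM in TKO-serum. Every TKO-2i library was lower than every TKO-serum library, although TKO-2i replicate 3 came close to TKO-serum replicate 2. The log2 fold change was -0.32 (SE 0.10, Benjamini-Hochberg adjusted p = 0.019 by edgeR's quasi-likelihood test). With edgeR and Benjamini-Hochberg adjustment the adjusted p was 0.063 without TKO-serum replicate 1 and 0.068 without TKO-serum replicate 3, within a range of 0.00055 to 0.068 over all alternatives, and the log2 fold change without TKO-2i replicate 2 was -0.22. Since the genes of chromosome 11 had a raised median, Socs3 lay further from that median than from 0, with a difference of -0.58. Socs3 TPM over Stat3 TPM was 0.931, 0.859 and 1.03 in TKO-2i and 1.46, 1.30 and 1.39 in TKO-serum, which did not overlap.

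Cish (ENSMUSG00000032578; chromosome 9, 107296026 to 107302784), an inhibitor that is best known as a target of STAT5, showed the largest difference of the 10 genes. It had 0.848, 0.773 and 0.844 CPM in TKO-2i, from 38, 34 and 36 estimated counts, and 6.14, 5.79 and 6.64 CPM in TKO-serum, from 237, 308 and 305 estimated counts. The replicates of each condition were close together, and the TKO-serum mean was 7.51 times the TKO-2i mean by the fitted model. The log2 fold change was -2.91 (SE 0.12, Benjamini-Hochberg adjusted p = 3.0e-07 by edgeR's quasi-likelihood test). It shrank to -1.46 with limma on log2(TPM + 1), where the added constant dampens changes at low levels. The fall of Cish stood beside rises of Stat5a and Stat5b in the same libraries.

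Socs2 (ENSMUSG00000020027; chromosome 10, 95385362 to 95417180), an inhibitor known for its action on growth hormone signalling, had 48.7, 55.7 and 54.7 CPM in TKO-2i and 51.9, 56.0 and 54.3 CPM in TKO-serum. These ranges overlapped, and the log2 fold change of -0.03 was not called (SE 0.06, Benjamini-Hochberg adjusted p = 0.73 by edgeR's quasi-likelihood test). In TPM the TKO-2i libraries were lower, with 39.0, 46.9 and 44.7 beside 49.7, 49.2 and 55.2 in TKO-serum, and limma on log2(TPM + 1) called it with a log2 fold change of -0.24 and an adjusted p of 0.044 after Benjamini-Hochberg adjustment, within a range of 0.043 to 0.99 over all alternatives. In the whole SOCS family of 8 genes, 2 were called higher and 3 lower in TKO-2i, with a median log2 fold change of 0.04. This median lay near 0 in every fit and changed sign, with 0.01 and -0.02 without TKO-2i replicates 2 and 3, 0.00 with at least 10 counts in every sample, -0.03 with length-scaled TPM and -0.12 and -0.13 with limma on the TPM scales, where 1 gene was called higher and 4 lower. Socs6 and Socs7 were the genes called higher (log2 fold changes 0.54 and 0.34), although Socs7 lost its call with limma on log2(TPM + 1) and log2(TPM + 0.1) (0.29 and 0.31), and Socs5 fell by 0.99 on the log2 scale. Socs7 lies on chromosome 11 and was 0.08 above the median of that chromosome. Socs1 and Socs4 were not called. Socs3 and Socs2 were the most abundant members of the family in each library, with between 33.1% and 43.0% and between 29.5% and 32.6% of its TPM. Of 10 other inhibitors of the pathway, 9 were tested, 3 were called higher and 1 lower, with a median log2 fold change of 0.07. It was 0.03 with length-scaled TPM or at least 10 counts in every sample and -0.07 with limma on both TPM scales. Ptpn6, the phosphatase SHP1, had a log2 fold change of 1.13 and lies on chromosome 6, whose median was 0.41. Ptpn1 fell by 0.57 on the log2 scale, and Ndufa13, a mitochondrial subunit also described as a STAT3 inhibitor, had a log2 fold change of 0.56. Pias2, the most abundant gene of the list in every TKO-serum library and in TKO-2i replicate 2, was not called.

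**Figure D3:**
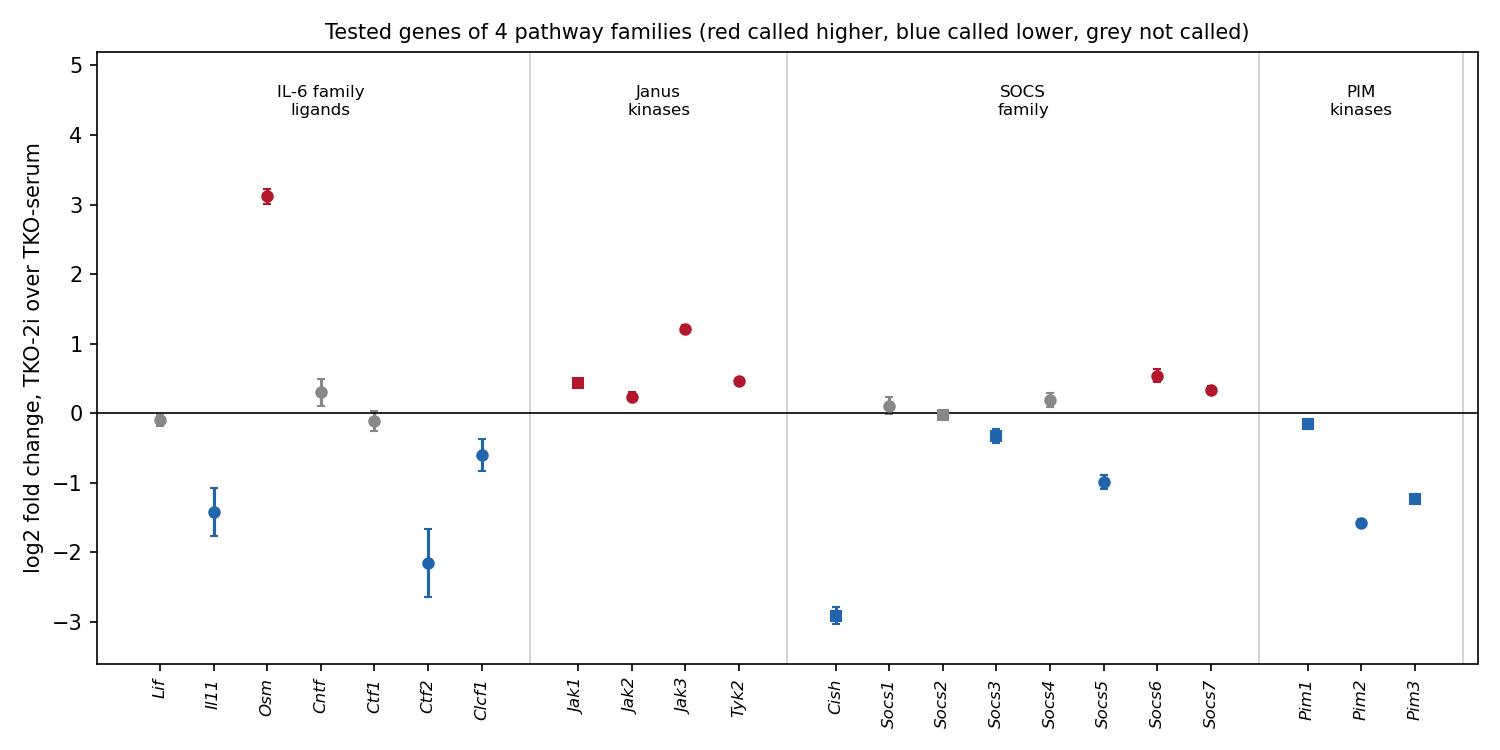
Log2 fold changes of TKO-2i over TKO-serum for the tested genes of 4 families of the pathway, with bars for the standard error and squares for those of the 10 pathway genes among them (red called higher, blue called lower, grey not called). All 4 Janus kinases lie above 0 and all 3 PIM kinases below 0, whereas the ligands and SOCS genes hold calls in both directions.

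The PIM kinases, which promote survival and growth and are induced by STAT3 and STAT5, fell together. Pim3 (ENSMUSG00000035828; chromosome 15, 88862186 to 88865726) had 76.2, 70.2 and 80.9 CPM in TKO-2i and 182, 172 and 178 CPM in TKO-serum. The gap between the conditions was many times the spread within them, and the log2 fold change was -1.23 (SE 0.06, Benjamini-Hochberg adjusted p = 1.1e-06 by edgeR's quasi-likelihood test). Pim1 (ENSMUSG00000024014; chromosome 17, 29490753 to 29496112) had 103, 97.0 and 101 CPM in TKO-2i and 115, 109 and 113 CPM in TKO-serum. Its conditions did not overlap but lay close together, with a log2 fold change of -0.16 (SE 0.05, Benjamini-Hochberg adjusted p = 0.025 by edgeR's quasi-likelihood test). This call was lost without TKO-2i replicate 3, TKO-serum replicate 1 or TKO-serum replicate 3, with adjusted p of 0.079, 0.11 and 0.081 from edgeR with Benjamini-Hochberg adjustment, within a range of 0.0040 to 0.11 over all alternatives. Pim2, the remaining kinase of the family, had 8.83, 9.96 and 8.99 TPM in TKO-2i and 28.8, 29.6 and 29.8 TPM in TKO-serum and a log2 fold change of -1.58. The family thus changed in composition. Pim1 made up 51.8%, 51.4% and 49.6% of its TPM in TKO-2i and 32.2%, 31.8% and 32.1% in TKO-serum, whereas Pim3 was the largest part in TKO-serum, with 54.2%, 54.7% and 54.4%. The summed TPM of the family were 108.6, 118.0 and 109.9 in TKO-2i and 211.0, 218.9 and 220.4 in TKO-serum.

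Bcl3 (ENSMUSG00000053175; chromosome 7, 19808462 to 19822770), a nuclear IkB protein that is induced by LIF in mESCs and acts with NF-kB subunits, had 60.4, 51.3 and 55.8 CPM in TKO-2i and 38.9, 36.4 and 39.0 CPM in TKO-serum. All 3 TKO-2i libraries were higher, and the log2 fold change was 0.55 (SE 0.07, Benjamini-Hochberg adjusted p = 0.00015 by edgeR's quasi-likelihood test). Bcl3 thus moved in the direction opposite to Socs3 and Pim3, which are also described as STAT3 targets. With the NF-kB subunits, 4 of 6 genes were called higher and 2 lower, with 0.39 as the median log2 fold change. With limma on the TPM scales the median was 0.23 and 0.24. The largest change was that of Relb, with 22.8, 23.9 and 24.6 TPM in TKO-2i and between 9.59 and 10.2 TPM in TKO-serum (log2 fold change 1.30). Rel, a gene of chromosome 11, had a log2 fold change of 0.75.

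The order of the 10 genes in TPM differed between the conditions at its upper end. In TKO-2i, Pim1 (57.2 ± 3.10 TPM, SD, n = 3), Stat3 (55.7 ± 4.52) and Socs3 (52.2 ± 2.95) came first and overlapped from each to the next. Pim3 (45.8 ± 2.04), Bcl3 (45.0 ± 2.69) and Socs2 (43.5 ± 4.10) followed and also overlapped. In TKO-serum, Pim3 stood alone at the top (118 ± 3.19 TPM, SD, n = 3), followed by Socs3 (70.0 ± 0.907) and Pim1 (69.4 ± 1.37), which overlapped, and by Socs2 (51.4 ± 3.36) and Stat3 (50.7 ± 3.07), which overlapped too. Bcl3 came next in TKO-serum with 34.8 ± 1.46 TPM. The lower end of the order was the same in both conditions. Jak1 (25.8 ± 3.22 TPM) and Il6st (22.2 ± 3.83) overlapped in TKO-2i and were followed by Lifr (10.9 ± 1.04) and Cish (0.336 ± 0.0206). In TKO-serum Jak1 (20.5 ± 0.262 TPM) stood above Il6st (16.2 ± 0.936) and Lifr (15.4 ± 1.98), which overlapped, and Cish came last with 2.67 ± 0.173 TPM.

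STAT dimers bind a palindrome whose core can be written TTCNNNGAA, which reads the same on both strands, and it was searched in the promoters of the pathway genes because Cish and Socs3 are the inhibitors among the 10 genes that fell. RefSeq promoters on GRCm38.p6, with 250 bases before and 50 bases after each start, were matched for 9 of the 10 genes, all but Socs2, with 11 promoters in all. The letters were present in 2726 of 32851 promoters (8.3%), and at least 2 matches were present in 150 (0.457%). Of the pathway genes, Socs3 had 1 match and Cish had 2 matches, with 2 bases between them. The match of Socs3 began 154 bases before the start of its RefSeq entry, in an intron of the transcript Socs3-202, and the first match of Cish began at the first transcribed base of its RefSeq entry, in an exon of Cish-201. The 30 bases around these matches are shown with the matches in capitals, on the strand of each gene, at chr11:117969501-117969530 (minus strand) and chr9:107296654-107296683 (plus strand).
Socs3: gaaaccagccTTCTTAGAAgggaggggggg
Cish: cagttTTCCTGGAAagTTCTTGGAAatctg
The promoters searched for Stat3, Lifr, Il6st, Jak1, Pim1, Pim3 and Bcl3 did not hold these letters, and the starts of the most abundant transcripts of Lifr and Il6st, Lifr-203 and Il6st-201, were not among them. The starts of Socs3-201 and Cish-201, the most abundant transcripts of the genes with matches, also lay outside the promoters searched. The search was prompted by changes in these same data, and Lifr, Pim1 and Pim3 were also called lower but had no match in the promoters searched. A match describes the sequence only, and binding of a STAT factor was not measured in these libraries. A link between a match and a fall was not tested.

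Genes described as downstream of LIF or STAT3 were counted in 3 lists. Of 10 naive pluripotency factors described as targets of LIF or STAT3 in mESCs, 7 were called higher and 2 lower in TKO-2i, with a median log2 fold change of 0.70. Tfcp2l1, a main mediator of self-renewal downstream of STAT3, had 128, 176 and 136 TPM in TKO-2i and 37.0, 42.1 and 40.4 TPM in TKO-serum (log2 fold change 1.96). The log2 fold changes of Pramel7 and Tbx3 were 1.62 and 1.52. Those of the abundant genes Nanog and Esrrb were 0.60 and 0.33, and Nanog lies on chromosome 6, whose median was 0.41. Several of these factors are also known to respond to MEK or GSK3 inhibition, which cannot be told apart here from LIF. Targets described across cell types formed the other lists. Of 24 STAT3 targets, 22 were tested, 8 were called higher and 12 lower, with -0.24 as the median log2 fold change. The median was -0.14 without TKO-serum replicate 1. The immediate-early genes Fos, Junb and Ier3, which growth factors induce through ERK as well, had the largest changes (-1.83, -1.52 and -1.48), and the abundant genes Birc5 and Mcl1 had 0.44 and -0.75. Of 9 STAT5 targets, 2 were called higher and 5 lower (3 lower without TKO-serum replicate 1 or 3), with a median log2 fold change of -0.16 (-0.28 with limma on both TPM scales), with Osm and Cish at its ends and Id1, which is also a target of BMP signalling, close to Cish (log2 fold change -2.52). Osm and Cish, both known to be induced by STAT5, thus moved in opposite directions.

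Other branches of the receptor changed in part. Of 13 genes of the SHP2 and PI3K branches, 4 were called higher and 5 lower, with a median log2 fold change of 0.06. It was 0.12 without TKO-2i replicate 1 or TKO-serum replicate 2, 0.02 with at least 10 counts in every sample, 0.03 with protein-coding genes only and -0.03 with limma on both TPM scales. Gab1, a docking protein that had the highest TPM of this list in TKO-serum, had a log2 fold change of -0.71, Eras, a Ras protein of mESCs that activates PI3K, had -1.68, Gab2 had -1.09 and Akt2 had 0.92. Grb2, which had the highest TPM of the list in TKO-2i and lies on chromosome 11, had 0.25, near the median of its chromosome. Among cofactors and modifiers of STAT3, the tyrosine kinase Fes had a log2 fold change of 2.21. Yes1, a Src family kinase with a small rise (0.25), lost its call without TKO-2i replicate 3 (0.26) and without TKO-serum replicates 1 (0.25) or 3 (0.22), and also with at least 10 counts in every sample (0.21) and with limma on both TPM scales (0.16).

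Markers of other cell types were measured in the same libraries. Of 8 primitive endoderm markers, 7 were called lower in TKO-2i and none higher, and their summed TPM were 4.77, 5.83 and 4.71 in TKO-2i and 16.9, 20.4 and 22.0 in TKO-serum. Gata4 was the most abundant in every TKO-2i library, with between 2.20 and 2.72 TPM. Dab2, the most abundant in every TKO-serum library, had between 0.191 and 0.368 TPM in TKO-2i and between 5.41 and 7.63 TPM in TKO-serum, no marker was at 0 in both conditions, and Foxa2 was at 0 TPM in TKO-2i replicate 1. The log2 fold changes of Cubn, Dab2 and Sox7 were -6.93, -4.35 and -4.05, and Gata4 was not called. Of 8 trophoblast markers, 7 were tested, 3 were called higher and 3 lower, and their summed TPM were 43.0, 41.2 and 39.2 in TKO-2i and 36.2, 35.8 and 33.7 in TKO-serum, most of it from Tfap2c, while Prl3d1 had no more than 3 counts in any library. Cdx2, Eomes and Ascl2 had log2 fold changes of 4.28, 2.81 and -3.37. Of 9 fibroblast markers, 5 were tested, 1 was called higher and 3 lower, and their summed TPM stayed between 5.99 and 7.29, with Thy1, which mESCs also express, as the most abundant. Pdgfrb was the marker called higher (log2 fold change 1.62), and Thy1 had -0.42. Of 6 blood cell markers, 2 were tested and 1, Laptm5, was called higher, which made up nearly all of the summed TPM of 59.2, 66.3 and 64.5 in TKO-2i and 28.1, 35.1 and 32.6 in TKO-serum, while Hba-a1 was not called, Hbb-bs had no count and Tyrobp had no more than 3 in any library. Of the 8 pluripotent cell markers, 2 were called higher and 5 lower, and their summed TPM were 3025, 3014 and 2836 in TKO-2i and 3592, 3694 and 3623 in TKO-serum. The log2 fold changes of Zfp42, Utf1 and Dppa4 were -0.40, -1.33 and -1.07, while Nanog was one of the 2 called higher (0.60). The part of such cells in the changes of the pathway genes was not tested, and in bulk RNA a smaller number of cells and less RNA per cell cannot be told apart.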

How the data were processed

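RNA-seq libraries of TKO mESCs, 3 from TKO-2i and 3 from TKO-serum, were grouped by their labels. The authors' deposited values are estimated counts, not normalized, and TPM, both per transcript and library. The columns are those that salmon writes, and the quantifier, its version and its index are not given in the sources used here; the methods describe Tophat alignment to mm10 and DEseq. Reads shared by transcripts are divided between them, so that between 85.1% and 85.8% of the deposited estimated counts above 0 were not whole. Whether the strand was used in the quantification is not given in the sources used here.

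Transcripts were matched to GENCODE M21 (GRCm38). Estimated counts and TPM were summed per gene, and counts were rounded. Between 0.0473% and 0.0643% of a library's counts were unmatched and left out. Genes passing filterByExpr were tested with edgeR 4.0.16 (R 4.3.3; TMM factors 0.9705 to 1.0267; glmQLFit, glmQLFTest) with the condition as the only factor and Benjamini-Hochberg adjustment over all 18177 genes. The fit was tested on simulated data. CPM used TMM-normalized library sizes. The standard error is the log2 fold change divided by the square root of F. No pair of replicates agreed within counting noise (chi-square per gene at least 4.69). Chromosome medians were taken over tested genes.

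The alternatives were the replicate number as a block, protein-coding genes only, DESeq2 1.42.0, edgeR with the size factors of DESeq2, length-scaled TPM as counts, no filter, a filter of 10 counts in every sample, limma 3.58.1 on log2(TPM + 0.1) and log2(TPM + 1), and each library left out in turn. Named from each list were the 2 genes with the highest mean TPM and the 3 called genes with the largest absolute log2 fold change at a mean CPM of at least 1, and any gene of the ligand, receptor, JAK, STAT, SOCS and PIM lists. The 10 genes and the lists were chosen with earlier results of these data known. Scripts used Python 3.11.15, pandas 2.3.3 and matplotlib. Other cell lines and assays of the study were not used here. Some genes of the receptor, STAT and cofactor lists, and the counts of these lists, are not reported here.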

Additional observations from a re-analysis of the deposited data

How the results depend on the processing

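Il6st, Jak1, Pim3, Cish and Bcl3 kept their direction and their call in all 15 alternative fits. Socs3 kept its call in 13, Stat3 in 13, Pim1 in 12 and Lifr in 10, each with its direction. The number of the 10 genes called higher in TKO-2i was 4, and 3 with limma on either TPM scale, where Stat3 lost its call. The number called lower was 5, rose to 6 with limma on TPM, where Socs2 was called, and lay between 2 and 5 with 1 library left out (5 without TKO-2i replicate 2, 2 without TKO-serum replicate 1 or 3), and the cause was not tested. The median over the 10 genes, -0.09, was -0.14 with at least 10 counts in every sample, -0.17 with length-scaled TPM and -0.26 with limma on log2(TPM + 1) and on log2(TPM + 0.1). With limma on the TPM scales the median of the tested genes was lower by 0.07 and 0.10, and the cause of the rest was not tested either. Socs2, which was not called, lay between -0.06 and 0.02 with 1 library left out, and changed sign without TKO-2i replicate 1. The count of 11361 genes called lay between 9804 and 12568 over the alternatives. With a replicate block it was 12539, the 10 genes kept 4 calls higher and 5 lower, and their median was -0.10. The labels give the replicates of the conditions no more in common than a number. Same-numbered samples deviated from their group means with r = 0.242, 0.329 and 0.014 across genes, and every sample but TKO-2i replicate 3 correlated best with its own number, a hint from the data and not from the design. Cish rested on at most 38 counts in a TKO-2i library. With 3 libraries a condition, a change as small as that of Pim1 can turn on 1 library.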
